A study of Mus musculus with 6 samples.

Results

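The ephrins, semaphorins, Slits and netrins and the receptors that read them are described here in the nuclear RNA of mouse embryonic stem (ES) cells. Members were the entries of the expression table whose RefSeq identifier maps to a symbol of an Eph receptor, ephrin, semaphorin, plexin, neuropilin, Slit, Robo, netrin or Unc5 gene, or to Dcc. This gave 69 genes, 34 receptors and 35 ligands, of 19338 genes with a symbol. They were drawn from 78 of 20633 entries, since 7 members had several entries, of which the one with the highest base mean was kept. All 69 RefSeq symbols of that form had an entry.

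The libraries were made from Rybp fl/fl;Yaf2-/- mouse ES cells, in which Yaf2 had been disrupted by CRISPR/Cas9 deletion of exons 1 and 2 and colonies picked individually, so that both groups descend from a clone that lacks Yaf2. The 3 untreated libraries (UNT) had intact floxed Rybp alleles, and the 3 treated libraries (OHT) came from the same line after 800 nM 4-hydroxytamoxifen for 96 hr, the inducer of the Cre recombinase that these cells carry. RYBP and YAF2 are alternative subunits of Polycomb repressive complex 1 (PRC1), which monoubiquitylates histone H2A. The study compared the groups to ask how gene expression depends on RYBP in cells that lack YAF2. No library of cells with intact Yaf2 was part of the comparison.

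For each entry the only quantity used was the base mean, the authors' mean over all 6 libraries of read counts scaled for library size. It pools UNT and OHT cells, so it gives the level of a gene in these cultures and carries no information on the response to OHT, no replicate error and no depth per library. All statements below are therefore about levels, and no difference between the groups was tested.

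These families carry much of the short-range and long-range signalling by which growing axons choose a path. Ephrins are anchored in the membrane of one cell and bind Eph receptor tyrosine kinases on another. Semaphorins act through plexins, whose cytoplasmic part switches off small GTPases, and most of the secreted class also need neuropilins. Slits are secreted repellents read by Robo receptors, and netrins attract through Dcc and repel through Unc5 receptors. Many of these genes are also used outside the nervous system, in vessels, epithelia and early embryos, and genes of developmental signalling pathways are frequent Polycomb targets in ES cells.

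Levels were compared between genes per kilobase of gene span, the length from start to end of the matched transcript, introns included. Nuclear RNA holds unspliced transcripts, and entries of the same gene in the table were used to see which length their base means followed. Among pairs of entries of one gene with similar exon length, but with the shorter span at most 0.5 of the longer, 143 pairs had a median base mean ratio of 0.558 at a median span ratio of 0.332. Among pairs with similar span but exon length at most 0.5, 25 pairs had a median base mean ratio of 0.932 at a median exon ratio of 0.386. In these pairs the base mean was thus lower where the span was shorter, though by less than the span, and hardly lower where only the exons were. The members with several entries were mixed. Sema6d had 78.3 over 578 kb and 11.9 over 57.5 kb, with 6157 and 6372 exonic bases. Sema6b had 91.8 over 17.3 kb and 83.3 over 10.1 kb, with 3736 and 3156 exonic bases, so its base mean followed the exons more closely. Sema4a was nearly flat, with 112 over 25.2 kb and 110 over 19.8 kb. The Plxnb2 entries had 3513 and 3285, yet both matched a span of 25.2 kb and 6497 exonic bases. The matched lengths therefore do not always describe what was counted. Unless another scale is named, orders of genes are per kb of span. Values per kilobase of exon are added for some genes whose place depends on the scale.

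The label of the cells fitted their markers. All 9 ES cell markers found in the table lay above the median level of all genes, with a median at the 97.7th percentile of base mean per kb of span. Tdgf1, Sox2 and Pou5f1 were the highest, with 2181, 1951 and 639 per kb of span, and Zfp42 and Esrrb the lowest, with 201 and 66.1. Of 6 endothelial markers, 0 were above the median per kb of span and 1 per kb of exon. Tek, Vwf and Tie1 were the highest of them, with 4.16, 1.61 and 1.17 per kb of span, and Cdh5 and Emcn the lowest, with 0.282 and 0.0100. Of 8 fibroblast markers, 2 were above the median per kb of span and 0 per kb of exon. These were Col1a1 and Thy1, with 21.96 and 21.2 per kb of span, followed by Pdgfrb at 6.64, and Dcn and Postn were the lowest, with 0.266 and 0.0450. Neuron markers had 3 of 8 above the median per kb of span and 4 per kb of exon. They were led by Stmn2 at 87.8 per kb of span, Tubb3 at 59.0 and Nefl at 24.2, whereas Rbfox3 and Dcx were at 0.364 and 0.00550. The part of other cell types in the levels of the members was not tested. Yaf2 had a base mean of 3.24, at the 5.66th percentile per kb of span. Rybp had a base mean of 13983, which averages libraries with and without the deletion and so checks neither group.

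The members were spread over almost the whole range of expression. Their base mean per kb of span ran over a 6559-fold range, from 0.0373 for Dcc to 245 for Epha2. Their median was 8.15 against 14.2 for the 17921 genes with a base mean above 0, which put the median member at the 42.1st percentile. Above the median of all genes lay 22 of 69 members (31.9%), 11 of 34 receptors and 11 of 35 ligands. A further 11 members lay just below it, between the 45th and 50th percentile, and 4 of the 22 lay between the 50th and 55th, so the count is sensitive to where the line is drawn.

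**Figure D1:**
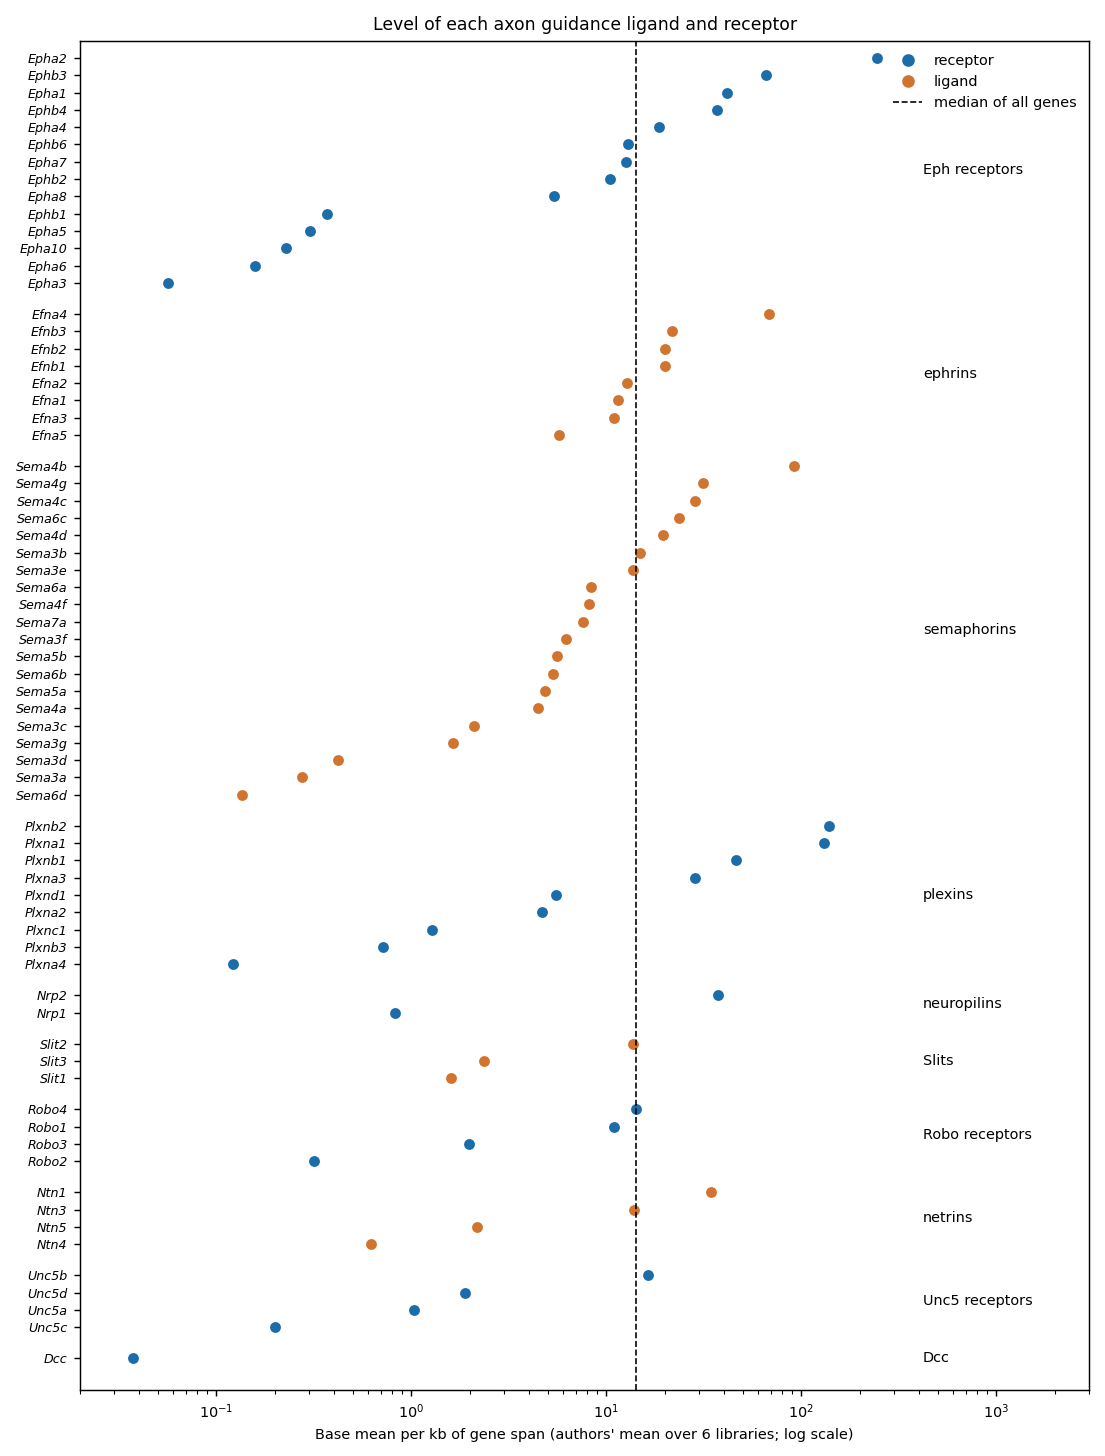
Base mean per kb of gene span (authors' mean over 6 libraries, log axis) for each of the 69 members, grouped by family, with receptors in blue and ligands in orange. The dashed line is the median of all genes, 14.2 per kb, and 22 members lie to its right; Epha2, Plxnb2 and Plxna1 lie farthest to the right and Dcc and Epha3 farthest to the left.

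No member was at 0, against 6.96% of all entries, and only Epha10 had a base mean under 10. In all, 18 members were under 100 and 21 were at 1000 or more. Percentiles of base mean among genes above 0 place these limits. Plxnb3 at 11.1 was at the 19.7th, Efna3 at 98.8 at the 36.6th and Sema6a at 1027 at the 71.2nd. Of the 6 members in the upper quartile of all genes per kb of span, 4 were receptors (Epha2, Ephb3, Plxna1 and Plxnb2) and the others were the ligands Sema4b and Efna4. Of the 17 in the lower quartile, which holds 25% of all genes, 14 had spans over 100 kb. The share of such spans among all genes of that quartile was not computed. These counts depend on the scale. Per kb of exon, 7 members were in the lower quartile and 10 in the upper. Those 10 were Efna5, Epha2, Nrp2, Ntn1, Plxna1, Plxnb2, Robo1, Sema3e, Sema4b and Slit2. All levels are means of bulk cultures, in which a low level from all cells and a higher level from a few cells cannot be told apart.

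Eph receptors bind membrane-anchored ephrins and signal through a tyrosine kinase domain. Of 14 Eph receptors, 5 were above the median of all genes per kb of span. Epha2, which binds A-type ephrins, dominated the family. Its base mean of 6883 over a span of 28.1 kb (chr4:141301240-141329384, mm10) gave 245 per kb, the 95.9th percentile, and it held 54.4% of the summed per-kb level of the 14 genes. It stood 3.72-fold above the next receptor, Ephb3, at 65.8 per kb, and Epha1 followed at 41.4 per kb. Per kb of exon Epha2 was also first, 4.03-fold above the next, which on that scale was Epha4.

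At the other end were Epha6, at 0.157 per kb with a base mean of 150 spread over 952 kb, and Epha3, at 0.0566 per kb with a base mean of 18.2 over 321 kb (chr16:63543534-63864158). Epha2 was thus 4320-fold above Epha3 per kb of span. Ephb4 and Epha4 were the other Eph receptors above the median. Ephb6, which lacks kinase activity, and Epha7, Ephb2 and Epha8 lay between 5.41 and 12.9 per kb, and Ephb1, Epha5 and Epha10 between 0.227 and 0.368. The Epha10 entry covers 6032 of the 36272 bases of the RefSeq gene, so its base mean of 1.37 counts only a short form of this kinase-dead receptor. It was the lowest Eph receptor per kb of exon, at 0.537, below Epha3 at 3.21. By class, the median EphA gene was at the 37.5th percentile and the median EphB gene at the 48.5th.

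The promoters of 3 Eph receptors were compared for their CG content, since variant PRC1 is known to be recruited to CG-rich promoters in ES cells. The 250 bases before the RefSeq start are given 5′ to 3′ on the gene's strand (GRCm38.p6), with every CG in capitals. Epha2, the highest member per kb of span (chr4:141300971-141301220, plus strand), had 9 CG, Epha3, the lowest Eph receptor per kb of span (chr16:63864176-63864425, minus strand), had 16, and Epha8, with the highest ratio of observed to expected CG among the 55 members with a matched promoter (chr4:136956817-136957066, minus strand), had 46.
Epha2: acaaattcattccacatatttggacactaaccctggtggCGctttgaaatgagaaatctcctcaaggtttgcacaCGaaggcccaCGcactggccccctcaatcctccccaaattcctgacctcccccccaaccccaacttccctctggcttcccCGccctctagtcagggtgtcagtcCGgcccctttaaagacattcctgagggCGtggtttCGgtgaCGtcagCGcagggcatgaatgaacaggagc
Epha3: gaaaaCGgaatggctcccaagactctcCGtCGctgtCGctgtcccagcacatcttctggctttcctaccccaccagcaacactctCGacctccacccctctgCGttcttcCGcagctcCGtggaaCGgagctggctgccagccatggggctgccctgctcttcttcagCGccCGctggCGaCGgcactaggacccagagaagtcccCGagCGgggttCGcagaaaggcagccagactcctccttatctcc
Epha8: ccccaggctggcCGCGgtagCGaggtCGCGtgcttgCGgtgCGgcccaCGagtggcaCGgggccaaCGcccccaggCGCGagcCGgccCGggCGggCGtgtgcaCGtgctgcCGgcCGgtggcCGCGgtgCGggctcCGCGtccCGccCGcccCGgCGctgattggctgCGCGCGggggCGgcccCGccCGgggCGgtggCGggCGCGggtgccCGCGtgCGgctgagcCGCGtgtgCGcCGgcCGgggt
Epha2 thus had fewer CG than Epha3, although its level was higher. The ratio of observed to expected CG, from the C and G content, was 0.494 for Epha2, 0.683 for Epha3 and 1.06 for Epha8.

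The 8 ephrins, the ligands of the Eph receptors, were less spread. Their base mean per kb of span differed by 11.9-fold from highest to lowest, against 4320-fold in the Eph receptors. Per kb of exon the ranges were 58.1-fold, with Efna5 highest, and 3273-fold. Efna4, a lipid-anchored A-type ephrin, was first with 68.1 per kb (base mean 316), the 80.2nd percentile. The transmembrane Efnb3 and Efnb2 followed with 21.8 and 19.98 per kb, and Efnb1 was close behind them, so 3 of 3 B-type ephrins and 1 of 5 A-type ephrins lay above the median per kb of span. This contrast did not hold per kb of exon, where 1 of 3 B-type and 2 of 5 A-type ephrins did. Efna2, Efna1 and Efna3 were between 10.9 and 12.8 per kb.

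Efna5 showed how much the scale matters. It had the highest base mean of the ephrins, 1561, yet at 5.70 per kb of span it was the lowest, since its span is 274 kb. Per kb of exon it would be first of all members, but its matched transcript has only 643 exonic bases, so that value, 2428 per kb of exon, is uncertain.

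Semaphorins, the largest family here with 20 genes, had 6 members above the median per kb of span. Sema4b, a transmembrane class 4 semaphorin, was the highest ligand per kb of span, with a base mean of 3640 and 91.7 per kb (chr7:80186841-80226527), the 85.5th percentile. On the exon scale Ntn1, at 1058 per kb, was above Sema4b, at 922. Sema4g at 31.2 per kb and Sema4c at 28.5 per kb came next, and 4 of 6 class 4 genes were above the median. Sema6c, Sema4d and Sema3b were the other genes above it. The secreted class 3 semaphorins, which bind neuropilins, were lower per kb of span, with 1 of 7 above the median and a median at the 28.6th percentile. The classes were closer per kb of exon, where 2 of 6 class 4 and 1 of 7 class 3 genes were above the median. Their median percentiles on that scale were 44.98 and 39.32.

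The lowest per kb of span were Sema6d, at 0.136 per kb, and Sema3a, the classical repellent of sensory axons, at 0.274 per kb. The Sema6d locus had 3 entries, with base means of 78.3 over 578 kb, 25.2 over 55.4 kb and 11.9 over 57.5 kb, so the short forms ran at 0.455 and 0.207 per kb. On the exon scale Sema3g was the lowest, at 4.49 per kb. The Sema3a entry spans 204205 of the 478664 bases of the RefSeq gene. Sema3e, Sema6a, Sema4f, Sema7a, Sema3f, Sema5b, Sema6b, Sema5a and Sema4a formed the middle of the family, between 4.44 and 13.7 per kb, and Sema3c, Sema3g and Sema3d lay between 0.420 and 2.09.

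A pair of class 4 promoters shows how much CG content varied within a class. Sema4b is shown as the highest ligand per kb of span (chr7:80186620-80186869, plus strand) and Sema4a, at 4.44 per kb, as the member with the lowest CG ratio (chr3:88461183-88461432, minus strand), with CG in capitals as above.
Sema4b: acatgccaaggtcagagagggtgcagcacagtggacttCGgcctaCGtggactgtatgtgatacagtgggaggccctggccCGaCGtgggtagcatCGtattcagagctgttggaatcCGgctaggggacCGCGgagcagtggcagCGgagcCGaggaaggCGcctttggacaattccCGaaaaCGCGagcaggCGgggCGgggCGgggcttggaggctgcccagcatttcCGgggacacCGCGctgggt
Sema4a: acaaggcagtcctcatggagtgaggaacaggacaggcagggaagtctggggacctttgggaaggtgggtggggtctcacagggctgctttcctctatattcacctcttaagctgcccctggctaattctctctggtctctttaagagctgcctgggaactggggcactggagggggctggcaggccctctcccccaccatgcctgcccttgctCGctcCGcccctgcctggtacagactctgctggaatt
Sema4b had 20 CG and a ratio of 0.815, and Sema4a had 2 CG and a ratio of 0.0901. The more CG-rich promoter belonged to the gene with the higher level, but the choice of these genes fixed that direction. This pair therefore says nothing on how level and CG content go together.

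Plexins are the signal-transducing receptors of semaphorins. Plxnb2 and Plxna1 were nearly level at the top of the 9 genes, with 139 and 130 per kb of span, a ratio of 1.07, and base means of 3513 and 6026. Their order was the other way round per kb of exon, with Plxna1 1.23-fold higher, so the data do not order them. Plxnb1, the receptor of Sema4d, followed at 46.3 per kb, and these 3 genes held 88.5% of the summed per-kb level of the family. Plxna3 was the remaining plexin above the median. The lowest were Plxna4 at 0.122 per kb, 1146-fold below Plxnb2, and Plxnb3 at 0.719 per kb with a base mean of 11.1. Plxnd1, which binds Sema3e without a neuropilin, Plxna2 and Plxnc1 lay between 1.28 and 5.49 per kb.

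The neuropilins, co-receptors of the secreted semaphorins and of vascular endothelial growth factor, were far apart. Nrp2 (chr1:62703702-62818695) had a base mean of 4309 and 37.5 per kb of span, and Nrp1 (chr8:128359284-128503363) a base mean of 118 and 0.822 per kb. The ratio was 45.6 per kb of span and 20.6 per kb of exon, with Nrp2 higher on both scales. Their spans are alike, 115 and 144 kb.

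All 3 Slits ranked higher per kb of exon than per kb of span. Slit2 had a base mean of 4400 over 322 kb, which gave 13.7 per kb and placed it just under the median, at the 49.4th percentile. Slit3 was at 2.35 and Slit1 at 1.59 per kb of span. Per kb of exon Slit2 was at the 80.2nd percentile and Slit3 at the 64.3rd, and Slit2 was first of the 3 on both scales.

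Among the Robo receptors, Robo4, known from endothelial cells, was at 14.2 per kb of span, at the 49.99th percentile, with a base mean of 163. Robo1, the widely used Slit receptor, was at 10.9 per kb with a base mean of 4166. Robo1 stood 10.9-fold above Robo4 per kb of exon and held 87.7% of the family's summed level, so which of these leads the family depends on the scale. Robo3, which acts in commissural axons, was at 1.98 per kb and Robo2 at 0.318. The Robo1 and Robo2 entries cover 382947 of 1019974 and 519151 of 1555468 bases of their RefSeq genes.

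Netrins and their receptors had 2 of 9 genes above the median, the ligand Ntn1 and the repulsive receptor Unc5b. Ntn1 (chr11:68209364-68386826), the founding attractant of commissural axons, had a base mean of 6073 and 34.2 per kb of span, the 66.0th percentile, and it held 67.3% of the summed level of the netrins per kb of span and 95.7% per kb of exon. Ntn3 was at 13.8, Ntn5 at 2.17 and Ntn4, a laminin-binding netrin of basement membranes, at 0.621 per kb of span. These 3 were close per kb of exon, between 13.96 and 18.1, with Ntn4 the highest and Ntn5 the lowest. Unc5b was at 16.4 per kb with a base mean of 1129, followed by Unc5d at 1.89, Unc5a at 1.04 and Unc5c at 0.201. Per kb of exon Unc5c was at 18.8 and Unc5a at 14.7, so the lowest Unc5 gene depends on the scale.

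Dcc, the attractive netrin receptor, had the lowest level of all 69 members per kb of span. Its base mean of 40.9 was spread over 1097 kb, which gave 0.0373 per kb, the 3.93rd percentile. Per kb of exon it was at 3.96, the 17.3th percentile, above Epha10, Plxnb3 and Epha3. The netrin ligand Ntn1 was thus in the upper part of the range and its attractive receptor at the bottom of it. Unc5b was the highest of the 5 Unc5 and Dcc receptors on both scales.

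The 2 length scales gave the same side of the median for most members. On both scales 15 members were above the median of all genes and 37 (53.6%) were below it. Above it per kb of span only were 7 short genes, Efnb1, Efnb3, Plxna3, Sema3b, Sema4c, Sema4g and Sema6c. Above it per kb of exon only were 10 members, Efna5, Epha7, Ephb2, Robo1, Sema3e, Sema5a, Sema5b, Sema6a, Slit2 and Slit3. In the upper quartile on both scales were Epha2, Plxna1, Plxnb2 and Sema4b, and in the lower quartile on both were Dcc, Epha10, Epha3, Plxna4 and Plxnb3.

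**Figure D2:**
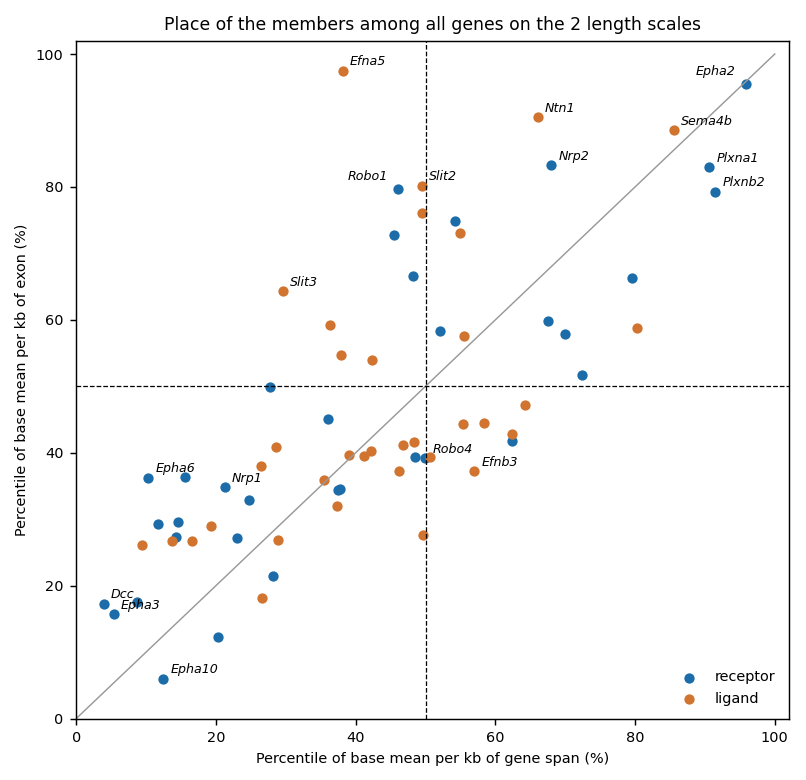
Percentile of each of the 69 members among all genes, per kb of gene span on the x axis and per kb of exon on the y axis, with receptors in blue and ligands in orange. Dashed lines mark the 50th percentile and the grey line equality; 15 members lie at the upper right of the dashed lines and 37 in the lower left, and Efna5, whose exon length is uncertain, is the point farthest above the line.

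Guidance genes are long. Their median span was 46.3 kb against 20.1 kb over all genes, and 31 of 69 (44.9%) exceeded 100 kb, against 12.1% of all genes. Across the 69 members Spearman's rho between span and base mean per kb of span was -0.51, against -0.14 over all genes, a description in which span stands on both sides. By base mean not divided by length, 31 members were above the median, and rho between span and that base mean was 0.20 in the members.

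Several members are neighbours on a chromosome and yet differed in level. Efna3 and Efna4 lie 10.4 kb apart on the same strand of chromosome 3, and Efna4 was 6.25-fold higher per kb of span and 4.72-fold higher per kb of exon. Efna1, 34.3 kb beyond Efna3, was within 1.05-fold of Efna3 per kb of span. Robo4 and Robo3 lie 2.48 kb apart in opposite directions on chromosome 9, and Robo4 was 7.15-fold higher per kb of span and 7.11-fold higher per kb of exon. Ephb2, 93.5 kb from Epha8, was 1.94-fold above it per kb of span and 12.7-fold per kb of exon. Sema3b was 2.39-fold above Sema3f per kb of span at a distance of 72.3 kb. Per kb of exon Sema3b and Sema3f were within 1.04-fold of each other, with Sema3f the higher.

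A few members share ground with other genes. The paper's methods name a directional library kit, but whether the counting used strand is not given in the sources used here. Sec1, on the opposite strand with a base mean of 226, covers 98.5% of Ntn5, so the base mean of 21.98 for Ntn5 is uncertain. Tbc1d24, on the same strand with a base mean of 945, covers 30.2% of Ntn3. Strand cannot separate the reads of these genes there, so the base mean of 78.5 for Ntn3 and its place among the netrins are uncertain too. On the opposite strand, 2010310C07Rik, with a base mean of 17.1, covers 17.6% of Epha1. Without these 3 members 21 of 66 were above the median.

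A promoter with its start within 500 bases of the entry's start was available in the RefSeq table for 55 members. The others were Dcc, Efnb3, Epha10, Ntn1, Plxna1, Plxna4, Robo2, Sema3b, Sema3c, Sema3f, Sema4d, Sema6a, Slit1 and Unc5d. A promoter was taken as CpG-rich when the ratio of observed to expected CG was at least 0.6 and GC at least 50% in the 250 bases before the start. This held for 31 of 55 members (56.4%) and for 52.7% of 13434 promoters of all genes, so the members as a list were close to other genes. Median GC was 65.2% in members and 58.8% in all genes, and the median number of CG was 17 and 13.

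Among all genes CpG-rich promoters went with a higher level, and in the members the direction depended on the threshold. Of all genes above the median level per kb of span 72.1% had a CpG-rich promoter, and of those below it 32.0%. The corresponding counts were 9 of 17 members above the median (52.9%) and 22 of 38 members below it (57.9%). With a CG ratio of at least 0.75, the shares were 35.3% of members above the median and 26.3% of those below it, the same direction as the 52.4% and 19.8% of all genes. Of 13 members in the lower quartile of level with a promoter, 7 were CpG-rich: Epha3, Epha5, Epha6, Ntn4, Plxnc1, Unc5a and Unc5c. The others, Ephb1, Nrp1, Plxnb3, Sema3a, Sema3d and Sema6d, were not. The share among all genes of that quartile was not computed. The members are few, the difference was not tested, and binding of PRC1 was not measured in these libraries.

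**Figure D3:**
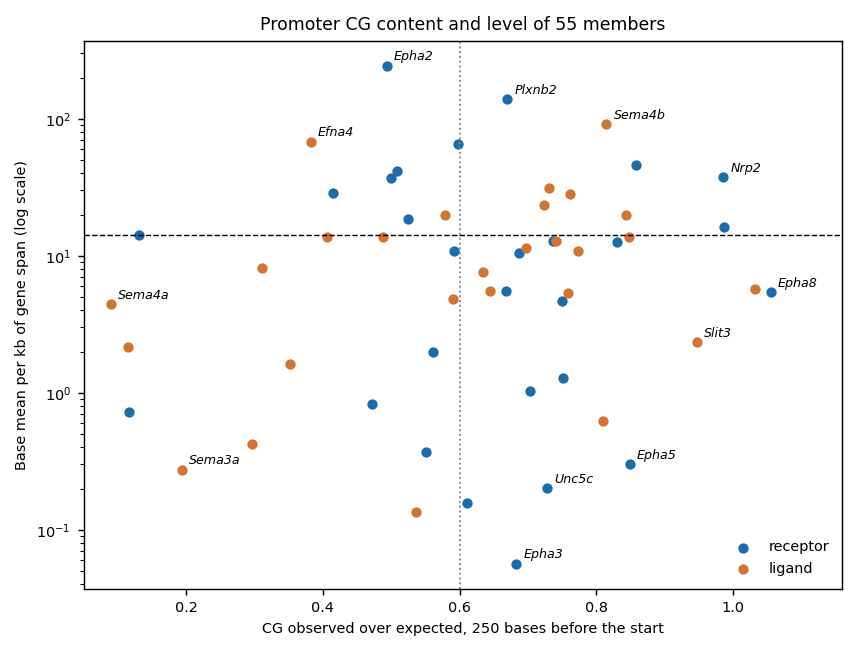
Ratio of observed to expected CG in the 250 bases before the start (x axis) against base mean per kb of gene span (y axis, log scale) for the 55 members with a promoter, with receptors in blue and ligands in orange. The dotted line is the ratio of 0.6 and the dashed line the median level of all genes; members to the right of the dotted line lie both far above it, as Sema4b and Plxnb2, and far below it, as Epha3 and Unc5c.

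Other guidance genes were taken from a list of cues and receptors outside these families and a list of cytoplasmic effectors. Of 23 other guidance cues and receptors in the table, 8 were above the median of all genes per kb of span. Ptch1, the hedgehog receptor, Neo1, a relative of Dcc that also binds netrins, and Flrt3 were the highest, with 62.5, 41.3 and 31.6 per kb, and Shh and Lrrc4c the lowest, with 0.0796 and 0.0152. Neo1 had a base mean of 6601, in contrast to 40.9 for Dcc.

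Of 48 cytoplasmic effectors, which act below the receptors on GTPases and actin, 31 were above the median per kb of span and 40 per kb of exon. Cfl1, the actin-severing cofilin, was highest at 945 per kb, followed by Enah at 232 and Cdc42 at 137, and Pak3 and Ngef were lowest at 1.17 and 0.482. The median effector lay at the 57.7th percentile, the median guidance receptor at the 37.6th, the median ligand at the 42.4th and the median of the other cues and receptors at the 33.0th. Effectors serve many pathways in every cell, so their levels are not specific to guidance.

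**Figure D4:**
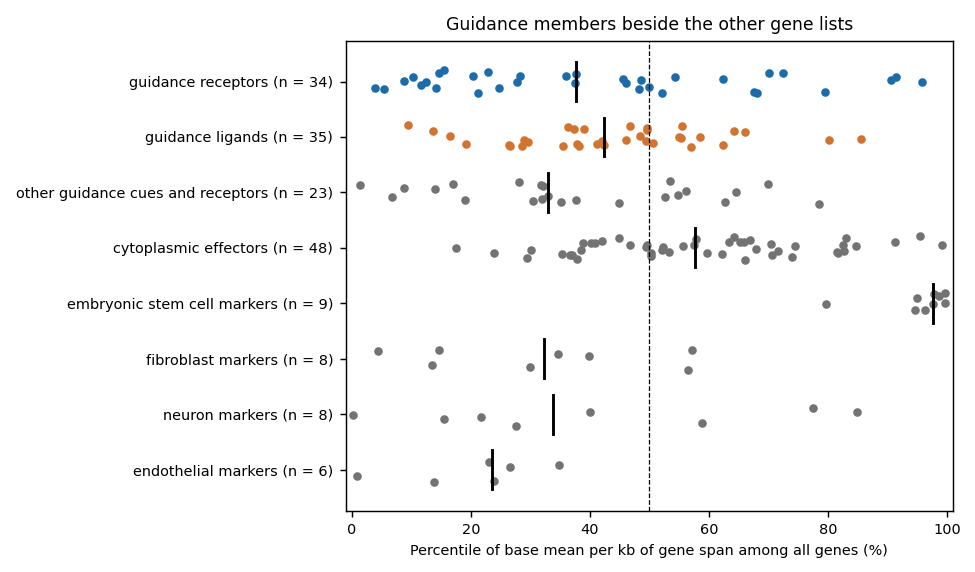
Percentile of base mean per kb of gene span among all genes for guidance receptors (blue), guidance ligands (orange) and the other lists (grey), 1 point per gene with a random vertical offset and a bar at each list's median. The medians of receptors and ligands, 37.6 and 42.4, lie below the dashed 50th percentile, that of the cytoplasmic effectors, 57.7, above it, and the ES cell markers lie near the upper end.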

How the data were processed

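RNA of isolated nuclei was sequenced in 3 UNT and 3 OHT libraries of Rybp fl/fl;Yaf2-/- ES cells. The authors removed rRNA reads with Bowtie2, aligned to mm10 with STAR and again with Bowtie2, counted reads on a filtered set of RefSeq genes with their own script and ran DESeq2. The paper gives better mapping of nascent intronic reads as the purpose of the later Bowtie2 pass. Its gene set was filtered on, among other things, how well gene bodies can be mapped. Whether exons or whole gene bodies were counted is not stated in the sources used here.

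The deposited base mean is a signal, averaged by the authors over the 6 libraries after their scaling of read counts for library size. The other 6 columns of values hold the authors' own comparison of OHT with UNT (log2 fold change, its standard error, test statistic, p-value, adjusted p-value and a threshold flag) and were not used. No table of counts for single libraries was analysed, so the edgeR test foreseen between the groups could not be run, and the depth of each library is unknown.

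Symbols came from RefSeq for GRCm38.p6 (20446 entries) or GENCODE vM21 (114), and 73 entries had no symbol. Spans, exon lengths and coordinates came from the GENCODE transcript linked to the identifier, in the coordinates of mm10, and promoters from the RefSeq table of GRCm38.p6. Percentiles were taken over 17921 genes for span and 17696 for exon length, 1 entry per gene. The functions were tested on simulated data. Python 3.11.15, numpy 2.4.6, pandas 2.3.3 and scipy 1.17.1 were used.

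In each family the 3 highest and 2 lowest genes per kb of span, and the highest ligand and receptor of each system, were named with values, likewise in each other list, with Rybp and Yaf2. Other genes named, Epha10, Epha8 and Sema4a among them, were chosen after their values were seen. The members and lists were chosen with earlier results of these data known.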

Additional observations from a re-analysis of the deposited data

How the results depend on the processing

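The counts are descriptions of a mean over all libraries and have no replicate error. Of 17 alternatives, 14 left a count within 1.5 times its value. Members above the median level were 22 in the report and 14 when the median was taken over genes with a base mean of at least 10. They were 25 per kb of exon, 31 with no length correction, 32 with genes at 0 included in the median, and 22 with entries of a gene summed. Members with a low base mean were 1 at a minimum of 10 and 3 at a minimum of 20. Members with a CpG-rich promoter were 31, and 16 when the CG ratio had to be at least 0.75, which 36.6% of all promoters passed. The span of the RefSeq gene in place of the transcript, which gave 26 members above the median, the removal of members with overlapping genes, which gave 21, and promoters within 50 bases of the start, of which 21 of 37 were CpG-rich, were added after seeing the data.

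The 5 alternatives foreseen for the comparison of OHT with UNT were not run, among them leaving out each replicate. No paired analysis was possible because the values used are means over all libraries and carry no replicate. The depth behind the lowest base means, such as those of Epha10 and Plxnb3, is unknown, so their order is not firm.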
